A study of Caenorhabditis elegans with 12 samples.

Results

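The miR-51 family null embryos of the 2-fold stage were compared with wild-type embryos of the same stage, using 4 of the 12 libraries of the series. The libraries were chosen by their titles, which name the strain and the stage, and gave 2 libraries of each genotype. Wild type was the strain N2. The null strain, MLC1800, carries nDf67 and n4100 on chromosome IV and nDf58 on the X chromosome, and the study's strain list also gives it the array lucEx1057, a fosmid with the miR-54 cluster marked by ttx-3::gfp and mir-35p::gfp. How embryos without the array were picked is not given in the sources used here. Each library held mRNA of 50 whole embryos from young adults kept at 20 °C, taken from the mothers as early cleavage embryos and left to develop. The sample labels used here name no batch.

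MicroRNAs guide Argonaute proteins to matching sites in 3′ untranslated regions, where they shorten the life of the mRNA and hold back its translation. Targets of a lost microRNA are therefore expected among the mRNAs that rise, together with any number of indirect changes. The miR-51 family is the worm branch of the miR-100 family, one of the oldest microRNA families in animals, and is abundant in the worm embryo. Of the 6 genes of the family, mir-51 and mir-53 lie at 11026013 to 11026112 and 11027593 to 11027691 on the minus strand of chromosome IV. mir-52 lies at 14034008 to 14034107 on the plus strand of that chromosome. The miR-54 cluster (mir-54, mir-55 and mir-56) spans 13144691 to 13145094 on the minus strand of the X chromosome (WBcel235). At the 2-fold stage the embryo is elongating inside the egg, muscle has begun to contract and most cells have left the cell cycle.

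QuantSeq primes on the poly(A) tail and reads 1 short tag near the 3′ end of a transcript. Assigned reads ranged from 887059 to 9558104 in the 4 libraries, and these were estimated to copy 134774 to 240856 molecules. Levels are given as counts per 1000000 assigned reads (CPM), scaled by TMM. Of 20362 genes, the 12062 with at least 20 reads over the series were tested, by the edgeR quasi-likelihood test with Benjamini-Hochberg adjustment, and a gene was called at an adjusted p under 0.05. Between 39.3% and 60.05% of reads in these libraries mapped to several places and were not assigned, so that levels of near-identical gene copies are uncertain. Tissue markers were present in both genotypes. The summed markers of body wall muscle (myo-3, unc-54 and hlh-1) were at 818 and 691 CPM in the wild-type libraries and at 847 and 775 CPM in the null libraries. Those of the epidermis (lin-26, dpy-7, elt-3 and nhr-23) were at 1372 and 1009 CPM against 1554 and 1600 CPM. The pharyngeal myosin gene myo-2 was at 0 CPM in 3 libraries and at 3.64 CPM in wild-type replicate 2, whereas the pharyngeal factor gene pha-4 was between 74.04 and 121 CPM in all 4.

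The wild-type libraries differed from the null libraries, and from each other, in mRNAs of yolk, oocyte, germ line and maternal genes. Where these mRNAs came from was not tested. The 7 genes of yolk proteins (vitellogenins, made by the adult intestine) and of the oocyte yolk receptor rme-2 summed to 1079 CPM in wild-type replicate 1, 3418 CPM in wild-type replicate 2, 0 CPM in null replicate 1 and 6.17 CPM in null replicate 2. Both wild-type sums were above both null sums at the bean stage too, at 262 and 195 CPM against 33.3 and 0.447 CPM. The summed level of 50 germ line and maternal genes moved the same way at the 2-fold stage, at 3085 and 8665 CPM in wild-type and 1298 and 1290 CPM in null embryos. Wild-type replicate 2 was highest in both sums. These sums moved with most of the lower genes described next. Their part in those results was not tested beyond the fit with the yolk level and the fit without wild-type replicate 2, whose values are given with the gene lists. In whole embryos, fewer cells of a type and less RNA per cell cannot be told apart.

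**Figure D1:**
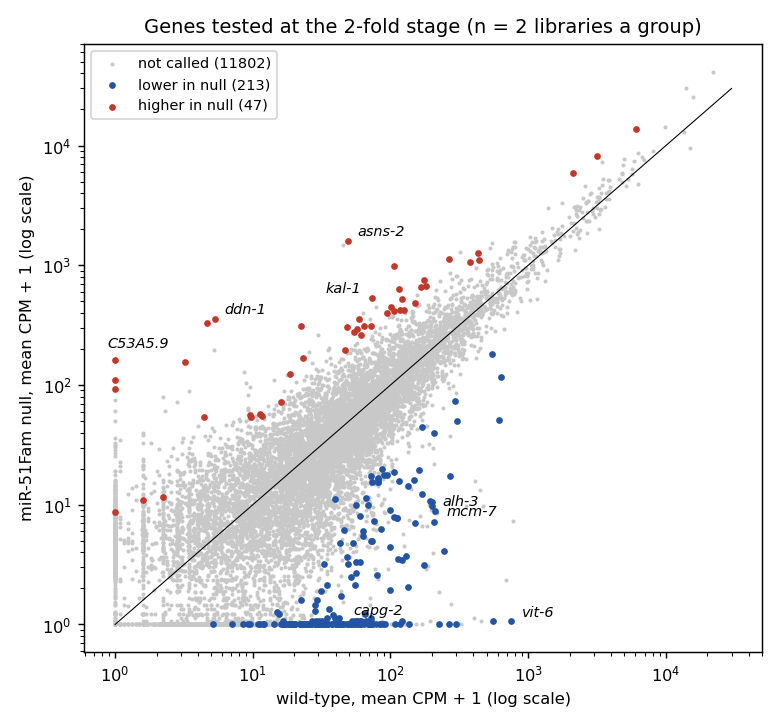
Mean level of each of the 12062 tested genes in wild-type (x axis) and miR-51Fam null (y axis) embryos of the 2-fold stage, as CPM + 1 on log scales with n = 2 libraries a group; the line marks equal levels. The 47 genes called higher lie above the line at all levels, whereas the 213 genes called lower lie under it and many of them sit on the lower edge, at 0 reads in both null libraries.

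At the 2-fold stage 260 genes differed between the genotypes: 47 were higher in null embryos (0.39% of the genes tested) and 213 were lower (1.77%). The higher genes included those of an asparagine synthetase, an antimicrobial peptide, the anosmin homolog kal-1, a hedgehog-related protein and members of the list of protein folding in the endoplasmic reticulum. The lower genes included members of the lists of DNA replication, mitosis and the germ line. At an unadjusted p under 0.05 there were 344 higher and 950 lower genes (2.85% and 7.88%), and DESeq2 called 92 and 429 (0.763% and 3.56%). The median change of all tested genes was -0.14 on the log2 scale. In all 47 and all 213 called genes the 2 null libraries lay on 1 side of the 2 wild-type libraries, as they did in 16.1% (null higher) and 25.9% (null lower) of all genes tested. On counts scaled to estimated molecules, 131 genes were higher and 288 lower (1.75% and 3.85% of the 7479 tested there), and 41 and 134 of the called genes passed in the same direction. Fitted on these 4 libraries alone, 152 were higher and 208 lower. Leaving out each 2-fold library in turn, 7 higher and 53 lower genes were called every time. The higher count was 20 without wild-type replicate 1, 21 without null replicate 2 and 75 without the shallow null 190-cell replicate 1, which shares the fit, and the lower count was 134 without null replicate 2. All 47 higher genes and 212 of the 213 lower genes code for proteins.

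asns-2, an asparagine synthetase gene, had the smallest p of all genes. It was at 53.6 and 42.5 CPM in the wild-type libraries and at 1807 and 1375 CPM in the null libraries. Both null libraries stood far above both wild-type libraries, a difference of 5.04 ± 0.49 (SE) on the log2 scale (edgeR, adjusted p = 6.42e-07). The gene was already higher at the bean stage, by 2.38 on the log2 scale, and the difference grew between the stages (interaction test, adjusted p = 0.048, with 0.0166% of all genes called in this direction and 0.298% in the other). asns-2 was called under all 14 alternative settings, the fit with the yolk level included. It was the only called member of a list of 16 tested genes of amino acid supply and stress (6.25%, beside 0.39% of all genes). DESeq2 called 3 of the 16. In that list the null libraries stood above the wild-type libraries in 6 genes (37.5%, beside 16.1% of all genes) and below them in 3 (18.8%, beside 25.9%).

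nlp-31 encodes a neuropeptide-like antimicrobial peptide of the epidermis. It measured 18.6 and 24.3 CPM in wild-type and 292 and 325 CPM in null embryos. The groups did not overlap and differed by 3.88 ± 0.51 (adjusted p = 3.58e-05), and this call also held under all 14 alternatives. nlp-31 is shown by stage because its wild-type level fell with development: it was at 708 and 1072 CPM at the 190-cell stage and at 54.5 and 176 CPM at the bean stage. In null embryos it was at 901 and 564 CPM at the bean stage. Among 13 tested antimicrobial peptide genes nlp-31 was the only one called (7.69%, beside 0.39% of all genes). The median change of the list was 1.68, a value that was 0 without null replicate 2 and 5.55 with the yolk level in the fit. Its neighbour in kind nlp-29, another epidermal antimicrobial peptide gene, was named after its values were seen; it was at 26.98 and 21.8 CPM against 138 and 235.4 CPM (log2 difference 2.93 ± 0.90, adjusted p = 0.0929).

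**Figure D2:**
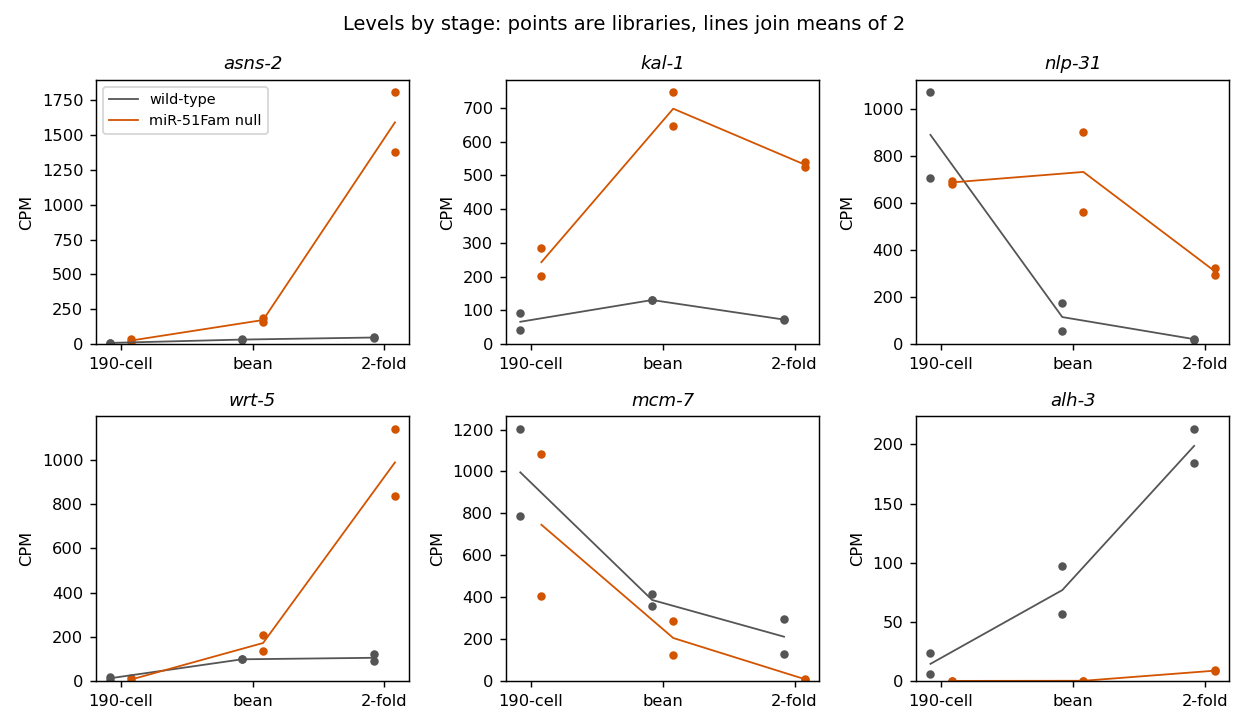
Level in CPM (y axes, linear, from 0) of 6 genes at the 190-cell, bean and 2-fold stages; points are single libraries and lines join the means of 2 libraries, grey for wild-type and orange for miR-51Fam null. asns-2 and wrt-5 part widest at the 2-fold stage, kal-1 is higher in null embryos at each stage, nlp-31 falls later in null embryos, and mcm-7 and alh-3 are lower in null embryos at the bean and 2-fold stages.

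kal-1 encodes anosmin, a secreted extracellular matrix protein that acts with heparan sulfate in epidermal and neuronal morphogenesis. It was at 74.2 and 71.6 CPM in wild-type and at 524 and 538 CPM in null embryos. The libraries of a genotype lay close together and far from those of the other, with a difference of 2.86 ± 0.47 (adjusted p = 0.000484). At the bean stage, in separate libraries, kal-1 was at 131 and 131 CPM in wild-type and 647 and 748 CPM in null embryos. It was called in every alternative but the fit with the yolk level, where its log2 difference was 2.3. kal-1 was 1 of 14 targets of the family that the study discusses; these were chosen with these libraries in view, so their count is not independent evidence of a direction.

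The other 13 discussed targets were not called at the adjusted p used here. At an unadjusted p under 0.05 by edgeR, 4 of the 14 were higher, kal-1 among them, and 0 lower. The study reports several of these genes as up-regulated at some stage, under a threshold of its own. With reporters and mutated binding sites it also found direct repression of the Notch receptor gene and of a heparan sulfate sulfotransferase gene. A missing call here is therefore not evidence that a gene is no target. Of the 14 genes, 12 had a difference above 0, the null libraries stood wholly above the wild-type libraries in 10 (71.4%, beside 16.1% of all genes) and below them in 0 (beside 25.9%), and the median was 1.35. Without wild-type replicate 2 the median was 0.99, and with the yolk level in the fit it was 0.77 with 0 called. Fitted on the 2-fold libraries alone, 3 of the 14 were called. eff-1, the epidermal cell fusion protein gene, was at 45.6 and 24.3 CPM against 217 and 187 CPM (log2 difference 2.51 ± 0.999, adjusted p = 0.279). The 2 groups did not overlap, and eff-1 was called on molecule-scaled counts (edgeR, adjusted p = 0.00427) and on the 2-fold libraries alone. lin-12, a Notch receptor gene, was at 10.4 and 3.64 CPM against 25.9 and 40.5 CPM (2.14 ± 1.02, adjusted p = 0.447), again without overlap. cdh-3, a Fat-like cadherin gene, was at 192 and 97.1 CPM against 370.2 and 389 CPM (1.38 ± 0.57, adjusted p = 0.314).

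Among the heparan sulfate sulfotransferase genes in that list, hst-1 was at 25.8 and 19.4 CPM against 51.4 and 84.2 CPM (1.57 ± 0.82, adjusted p = 0.511). hst-6 was at 29.1 and 10.9 CPM against 35.3 and 79.02 CPM (1.47 ± 0.84, adjusted p = 0.571). In both genes each null library lay above each wild-type library. hst-3.2 had 1 null library under and 1 over the wild-type range, at 6.58 and 9.71 CPM against 4.91 and 35.1 CPM, and hst-2 had no read in null replicate 1. The Frizzled receptor genes mig-1 and lin-17 differed by 1.43 ± 1.44 and 0.76 ± 0.75, the ephrin genes efn-2, efn-4 and vab-2 by 1.01 ± 0.62, 0.92 ± 0.66 and -0.42 ± 0.66, and the body size gene lon-1 by 0.48 ± 1.57. None of these 6 genes was called, with adjusted p from 0.607 to 1. Both null libraries lay above both wild-type libraries in mig-1, lin-17, efn-2 and efn-4, and the groups overlapped in vab-2 and lon-1. kal-1 was also the only called gene of 26 tested genes of heparan sulfate synthesis and heparan sulfate proteins (3.85%, beside 0.39% of all genes).

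A wider list held 207 names marked as predicted targets in the study's tables, of which 206 were tested. The set of predicted targets that the study describes is larger, and targets not marked in those tables were not analysed here. 6 of the 206 (2.91%) were called higher, against 0.39% of all genes tested, and none was lower. At an unadjusted p under 0.05 by edgeR, 28 were higher and 2 lower, beside 2.85% and 7.88% of all genes. DESeq2 called 9 higher and 1 lower, beside 0.763% and 3.56% of all genes. The null libraries stood wholly above the wild-type libraries in 98 of the 206 (47.6%) and below them in 13 (6.31%), beside 16.1% and 25.9% of all genes. The median change was 0.81, beside -0.14 for all genes. At the bean stage, measured in other libraries, the null libraries were above in 96 (46.6%) and below in 13 (6.31%), beside 17.1% and 16.7% of all genes. Wild-type replicate 2 was above replicate 1 in 42.2% of the list and in 46.1% of all genes. Without null replicate 2 the list had 2 calls, without wild-type replicate 2 its median was 0.57 with 1 gene called, and with the yolk level in the fit it was 0.49 with 0 called by edgeR (6 higher and 0 lower at an unadjusted p under 0.05).

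The called members beside kal-1 have varied roles. Y57G11C.31 was at 132 and 95.9 CPM in wild-type and 579 and 698 CPM in null embryos (2.48 ± 0.49, adjusted p = 0.00494). acl-4, a glycerol phosphate acyltransferase gene of lipid synthesis, was at 27.5 and 16.99 CPM against 189.8 and 147 CPM (2.89 ± 0.61, adjusted p = 0.00687). Null embryos held several times the wild-type level of both. lsm-1, part of the ring that binds deadenylated mRNA, rose by 1.78 ± 0.42 (adjusted p = 0.0169). dph-3, a gene of diphthamide synthesis, rose by 2.08 ± 0.50 (adjusted p = 0.0193). cnd-1, a NeuroD-like neuronal bHLH gene, was at 14.1 and 7.28 CPM against 53.6 and 55.5 CPM (2.26 ± 0.59, adjusted p = 0.0385). It was the only called gene of 36 tested neuronal genes (2.78%, beside 0.39% of all genes).

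**Figure D3:**
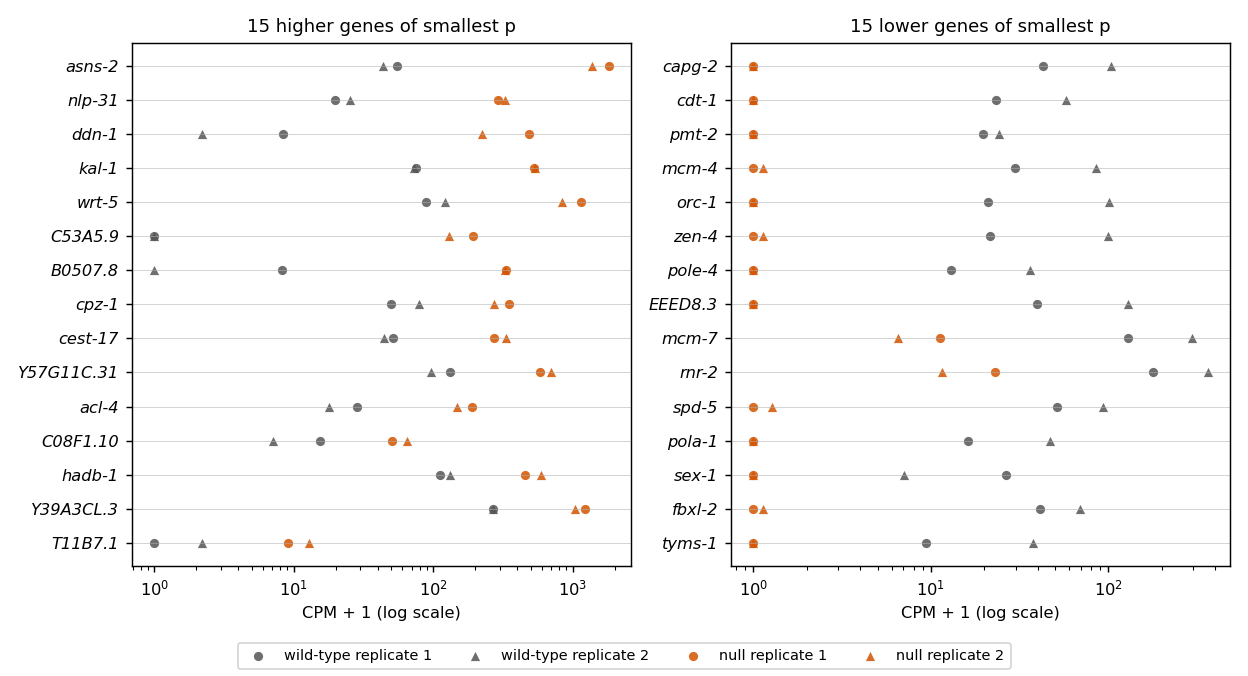
Level as CPM + 1 (x axes, log scale) of the 15 higher and the 15 lower genes of smallest p, by library: grey for wild-type, orange for miR-51Fam null, circles for replicate 1 and triangles for replicate 2. The genotypes do not overlap in any of the 30 genes, and in the right panel wild-type replicate 2 lies right of replicate 1 in all genes but sex-1.

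wrt-5 encodes a hedgehog-related protein made by epithelia. It was at 88.0 and 121 CPM in wild-type and at 1140.5 and 838 CPM in null embryos, a difference of 3.25 ± 0.53 (adjusted p = 0.00052). No other of the 47 tested hedgehog-related and Patched-family genes was called (2.13% with wrt-5, beside 0.39% of all genes). cest-17, a carboxylesterase-like gene, was at 50.5 and 43.7 CPM against 272 and 331 CPM (2.67 ± 0.54, adjusted p = 0.00488). asns-2, nlp-31, kal-1, wrt-5, cest-17 and C53A5.9 were the 6 higher genes called in each of the 13 alternatives without the yolk level.

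C53A5.9 had no read in either wild-type library and was at 192 and 128.7 CPM in the null libraries, at least 21.3-fold higher when 3 molecules over the wild-type group are taken as the floor (adjusted p = 0.00156). It was at 0 CPM in both genotypes at the bean stage. ddn-1 was at 7.40 and 1.21 CPM against 486 and 223 CPM (6.11 ± 0.94, adjusted p = 0.000435), and B0507.8 at 7.24 and 0 CPM against 330.5 and 324 CPM (6.16 ± 1.07, adjusted p = 0.00236). DESeq2 called neither (adjusted p = 0.819 for ddn-1 and 0.809 for B0507.8), and with the yolk level in the fit the difference of ddn-1 was 0.997. These 3 genes were nearly silent in wild-type and well expressed in both null libraries. cpz-1, a cathepsin Z gene, and hadb-1, a gene of mitochondrial fatty acid oxidation, rose by 2.3 ± 0.45 (adjusted p = 0.00368) and 2.12 ± 0.45 (adjusted p = 0.00752). C08F1.10, Y39A3CL.3 and T11B7.1 completed the 15 higher genes of smallest p. T11B7.1 stood on few molecules, at 0 and 1.21 CPM against 8.04 and 11.8 CPM, and was not called on molecule-scaled counts.

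Of 21 tested genes of protein folding in the endoplasmic reticulum 2 were called, both higher (9.52%, beside 0.39% of all genes). The null libraries were wholly above in 12 (57.1%, beside 16.1%) and below in 2 (beside 25.9%), with a median of 0.51. pdi-2, a protein disulfide isomerase gene whose product also serves collagen processing, was at 2421 and 1822 CPM against 5921 and 5760.4 CPM (1.46 ± 0.36, adjusted p = 0.0255). enpl-1, the worm GRP94 chaperone gene, was at 474 and 399 CPM against 1136 and 1082 CPM (1.34 ± 0.35, adjusted p = 0.039). Neither gene overlapped between genotypes. The number called was 1 without wild-type replicate 1 or null replicate 1 and 0 without wild-type replicate 2 or null replicate 2, and the median with the yolk level in the fit was -0.04, so the direction of the list was not kept there. Of 75 ribosomal protein genes 2 were called (2.67%, beside 0.39% of all genes), rpl-39 (1.37 ± 0.35, adjusted p = 0.0283) and rpl-29 (1.18 ± 0.32, adjusted p = 0.0445), both higher, and the median was 0.17. The count was 0 without wild-type replicate 1, wild-type replicate 2 or null replicate 2 and 1 without null replicate 1, and the median turned to -0.11 without wild-type replicate 2 and -0.49 with the yolk level in the fit. ugt-57, of the UDP-glucuronosyltransferase family, rose by 2.58 ± 0.67 (edgeR, adjusted p = 0.036), 1 of 41 tested members (2.44%, beside 0.39% of all genes). Its call was lost without any 1 of the 4 libraries, at adjusted p from 0.0689 to 0.187, and DESeq2 called 0 of the 41.

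The 47 higher genes were followed into the bean stage, whose 4 libraries were not compared in the contrast that called them. These libraries did share the fit that estimated the spread of each gene. Genes with close bean duplicates could thus be called more easily, and the bean values are not fully independent of the calls. Their median difference there was 1.01, and 39 of them were above 0. Both null bean libraries lay above both wild-type bean libraries in 35 (74.5%), beside 17.1% of all genes tested. None lay wholly below. Of the 213 lower genes 184 had a bean difference below 0, and both null bean libraries lay below the wild-type ones in 128 (60.1%), beside 16.7% of all genes. The yolk sum differed between the genotypes at that stage too. The calls at the bean stage itself were few, with 6 higher (0.0497%) and 2 lower genes (0.0166%).

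Genes of DNA replication were lower in null embryos. Of 44 tested, 13 were lower and none higher (29.5% against 1.77% of all genes; 0 higher at an unadjusted p under 0.05 and 0 by DESeq2). Their median was -2.68, or -1.91 with genes at 0 reads set to their bound. mcm-7, a subunit of the replicative helicase, was at 128 and 294 CPM in wild-type and at 10.27 and 5.50 CPM in null embryos. The difference was -4.78 ± 0.59 on the log2 scale (adjusted p = 3.58e-05). rnr-2, the small subunit of ribonucleotide reductase, was at 178 and 362 CPM against 21.9 and 10.6 CPM (-4.08 ± 0.55, adjusted p = 3.58e-05). Both were low in each null library and highest in wild-type replicate 2.

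Other replication genes were at or next to 0 reads in null embryos. cdt-1, which licenses origins, was at 22.4 and 57.04 CPM against 0 and 0 CPM, at least 3.2-fold lower against a floor of 3 molecules over the null group (12.41 CPM). orc-1, of the origin recognition complex, was at 20.1 and 99.5 CPM against 0 and 0 CPM, at least 4.82-fold lower. mcm-4 was at 28.9 and 83.7 CPM against 0 and 0.134 CPM. In each of them wild-type replicate 2 was above replicate 1. pola-1 and pole-4, of the polymerases alpha and epsilon, and tyms-1, the thymidylate synthase gene, were also at 0 in both null libraries, with wild-type levels of 15.1 and 46.1, 12.01 and 35.2, and 8.39 and 36.4 CPM. The summed level of the list was 1473 and 3554 CPM in wild-type and 462 and 441 CPM in null embryos. Wild-type replicate 2 was above replicate 1 in 41 of the 44 genes. Without wild-type replicate 2 the edgeR count was 18, and with the yolk level in the fit it was 8.

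Mitosis genes showed the same order of libraries. 22 of 75 tested were lower (29.3%, beside 1.77% of all genes) and none higher (0 at an unadjusted p under 0.05 and 0 by DESeq2), with a median of -1.58, or -1.38 at the bounds. The median was -1.01 without wild-type replicate 2 and -3.01 without null replicate 2. capg-2, a condensin subunit, had the smallest p of the lower genes: it was at 41.8 and 102 CPM in wild-type and 0 and 0 CPM in null embryos, at least 5.79-fold lower (adjusted p = 5.9e-06). zen-4, the kinesin of the central spindle, was at 20.4 and 98.3 CPM against 0 and 0.134 CPM. spd-5, the scaffold of the centrosome, was at 50.2 and 92.2 CPM against 0 and 0.268 CPM, and ndc-80, of the outer kinetochore, at 33.2 and 52.2 CPM against 0 and 1.48 CPM. All 4 were near 0 in both null libraries. Wild-type replicate 2 was above replicate 1 in 65 of the 75 genes. The count was 20 without that library and 5 with the yolk level in the fit.

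Of 26 cell cycle regulators, 6 were lower (23.1%, beside 1.77% of all genes) and none higher (1 higher at an unadjusted p under 0.05 and 1 by DESeq2). cyb-3 and cyb-1, mitotic B-type cyclin genes, were at 264 and 956 CPM against 46.9 and 52.7 CPM (-3.61 ± 0.61, adjusted p = 0.0062) and at 118 and 297 CPM against 28.6 and 48.6 CPM (-2.40 ± 0.51, adjusted p = 0.00723). cye-1, cyclin E, was at 5.76 and 48.5 CPM against 0.447 and 0.134 CPM. cdk-4 was at 13.3 and 19.4 CPM against 0 and 0 CPM, at least 1.32-fold lower. On molecule-scaled counts cdk-4 and cye-1 were not called (adjusted p = 0.199 and 0.0518). The wild-type level of cye-1 rested largely on replicate 2, whereas the wild-type libraries agreed more closely for cdk-4. The count was 7 without wild-type replicate 2 and 2 with the yolk level in the fit.

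**Figure D4:**
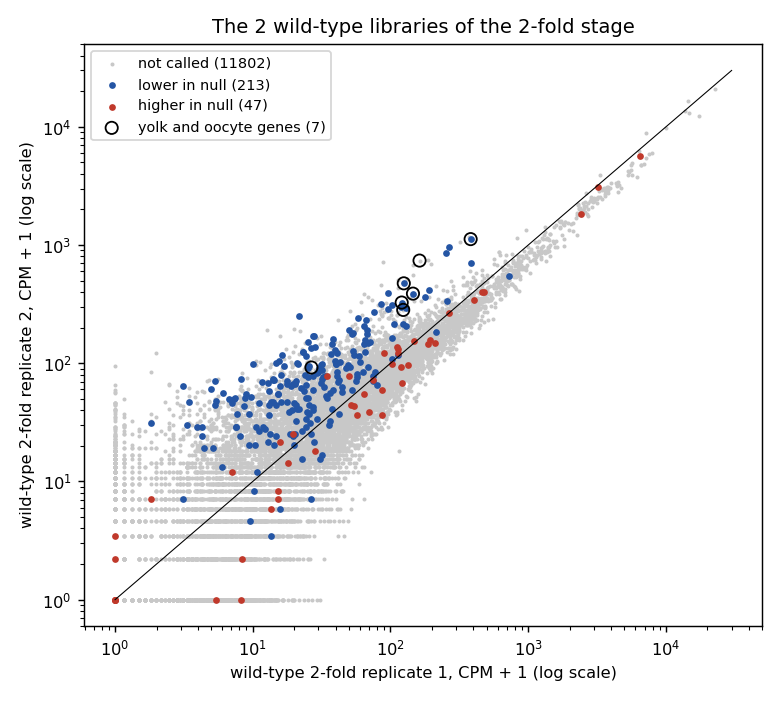
Level of each tested gene in wild-type 2-fold replicate 1 (x axis) and replicate 2 (y axis), as CPM + 1 on log scales; the line marks equal levels and circles mark the 7 yolk and oocyte genes. Of the 213 genes lower in null embryos 196 lie above the line, as do all 7 circled genes, whereas 14 of the 47 higher genes do.

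Germ line and maternal genes gave 9 lower and no higher calls among 50 tested (18% lower, beside 1.77% of all genes, and 0 higher at an unadjusted p under 0.05 and 0 by DESeq2), with a median of -4.63, or -2.32 at the bounds. gld-1, a translational repressor of the germ line, was at 64.6 and 155.4 CPM in wild-type and at 4.02 and 9.52 CPM in null embryos (-3.96 ± 0.76, adjusted p = 0.00286). mes-4, a histone methyltransferase of the germ line, was at 4.28 and 70.4 CPM against 0 and 0.402 CPM, so that its wild-type level came from replicate 2. deps-1, a P granule gene, was at 26.5 and 169 CPM against 0 and 1.88 CPM. The germ line markers pgl-1, glh-1 and nos-2 summed to 160.4 and 431 CPM in wild-type and 56.3 and 19.6 CPM in null embryos. Wild-type replicate 2 was above replicate 1 in 46 of the 50 genes. The count was 20 without that library, 4 without null replicate 1 or null replicate 2, 5 without null 190-cell replicate 1 and 1 with the yolk level in the fit, where the median was -0.30. All 7 yolk and oocyte genes were lower at an unadjusted p under 0.05, and 4 were called. The count was 1 without null replicate 1, 7 without wild-type replicate 2 and 7 by DESeq2. vit-6 was at 381 and 1121 CPM against 0 and 0.134 CPM, and its call was lost without either null library (adjusted p = 0.116 and 0.0529) and on molecule-scaled counts (0.326).

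Among 100 tested cuticle collagen genes, 5 were lower (5%, beside 1.77% of all genes) and none higher (0 at an unadjusted p under 0.05 and 0 by DESeq2). col-140 was at 24.3 and 150.5 CPM in wild-type and 0 and 0 CPM in null embryos, at least 7.04-fold lower. The summed level of the collagen family was nevertheless similar, at 20765 and 16350 CPM against 20090 and 19420 CPM. col-181, col-119 and col-122 were likewise at 0 CPM in both null libraries, and wild-type replicate 2 was 3 or more times replicate 1 in each of these 4. The list's median was -6.36 fitted but 0 at the bounds, 58 of its genes having no read in null embryos. The count was 2 without wild-type replicate 2, 1 without null replicate 1, 0 without null replicate 2 and 3 without null 190-cell replicate 1. The median was -0.31 without wild-type replicate 2. With the yolk level in the fit edgeR called 0 and the fitted median was 0.0073.

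Across all 213 lower genes, wild-type replicate 2 was above replicate 1 in 196 (92%), beside 46.1% of all genes tested, and the median ratio of the 2 libraries was 2.71 beside 0.928. In 116 of the 213 neither null library had a read, and in 9 of these the wild-type mean did not exceed the null floor, so no fold can be given. Without wild-type replicate 2, 166 of the 213 genes remained called, and with the yolk level in the fit 34 did, where 11 genes were higher and 39 lower in all (0.0912% and 0.323%). The yolk level separates the genotypes at every stage, so yolk level and genotype can hardly be told apart in this fit. Of the 47 higher genes 17 remained without wild-type replicate 2, 16 without wild-type replicate 1, and 2, asns-2 and nlp-31, with the yolk level in the fit.

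17 lower genes did not follow the wild-type replicate 2 pattern. sex-1 is a nuclear receptor gene that reads the number of X chromosomes. It was at 25.33 and 6.07 CPM in wild-type and 0 and 0 CPM in null embryos. Taken on the wild-type mean, it was at least 1.26-fold lower (edgeR, adjusted p = 0.000109, but 0.228 on molecule-scaled counts). Wild-type replicate 2 alone lay under the null floor of 12.41 CPM, so this bound rests on replicate 1. ins-34, an insulin-like peptide gene, was at 725 and 545 CPM against 71.0 and 162 CPM (-2.44 ± 0.53, adjusted p = 0.00896). Both null libraries were well below both wild-type libraries in ins-34, the most abundant of these genes.

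alh-3, a gene of folate metabolism, was the only called gene within 10 kb of a deleted microRNA gene, of 10 tested there. Of all genes tested, 1.77% were called lower. It lies at 11022603 to 11025870 on the plus strand of chromosome IV, and its end is next to mir-51. It was at 213 and 184 CPM in wild-type and at 8.93 and 8.45 CPM in null embryos (-4.51 ± 0.91, adjusted p = 0.00502). It was at 96.8 and 56.8 CPM against 0 and 0.224 CPM at the bean stage, with an adjusted p of 0.00199. The library pairs were close at the 2-fold stage and the genotypes were far apart. The 2-fold call was lost without null replicate 2, at a difference of -4.47 and an adjusted p of 0.0653. Whether the deletion nDf67 reaches into alh-3 was not analysed here. mob-2, near the miR-54 cluster, was at 94.1 and 74.04 CPM against 165 and 203 CPM (1.12 ± 0.57, adjusted p = 0.5).

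Single called genes of other lists were lower. mom-2, a Wnt ligand gene, was at 65.1 and 231 CPM against 18.3 and 11.8 CPM (edgeR, -3.29 ± 0.76, adjusted p = 0.0155). It was the only call among 28 Wnt genes (3.57%, beside 1.77% of all genes called lower). Its log2 difference was -2.26 without wild-type replicate 2, where the call was lost. sel-8, a Mastermind-like co-activator of Notch, was at 19.1 and 19.4 CPM against 0 and 0 CPM, at least 1.55-fold lower. lin-41, a heterochronic regulator, was at 43.1 and 55.8 CPM against 0 and 0 CPM, at least 3.98-fold lower (adjusted p = 0.0343). The wild-type libraries of sel-8 and lin-41 were close to each other. pmt-2, a methyltransferase of phosphocholine synthesis, was at 18.8 and 23.1 CPM against 0 and 0 CPM, at least 1.68-fold lower. On molecule-scaled counts sel-8 and pmt-2 were not called (adjusted p = 0.188 and 0.109). cars-1, the cysteinyl tRNA synthetase gene, was at 74.02 and 76.5 CPM against 10.7 and 2.01 CPM (-3.62 ± 0.93, adjusted p = 0.0331).

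**Figure D5:**
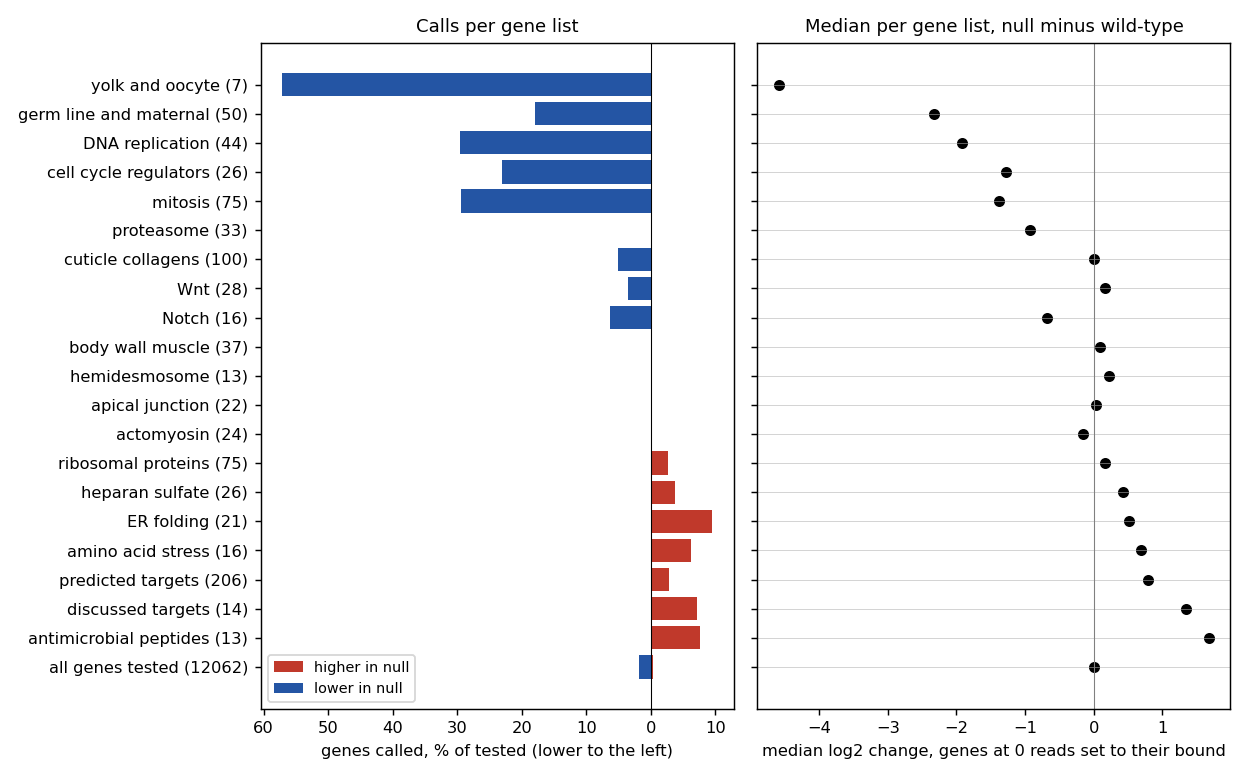
Left, share of the tested genes of each list called higher (red, to the right) or lower (blue, to the left) in miR-51Fam null embryos of the 2-fold stage, with the number tested in brackets; right, the median log2 change of the list with genes at 0 reads set to their bound. The replication, cell cycle and mitosis lists hold 23.1% to 29.5% lower calls and negative medians, the muscle, hemidesmosome, apical junction and actomyosin lists hold no call, and the 14 discussed and 206 predicted targets have medians of 1.35 and 0.79.

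On molecule-scaled counts 15 of the 66 called genes that the naming rule picked lost their call, at adjusted p from 0.0518 to 0.361, pole-4 and tyms-1 among them. DESeq2 lost 4, which were ddn-1, B0507.8, ugt-57 and sams-1. 26 of the 66 kept their call without any 1 of the 5 libraries left out in turn. They include asns-2, nlp-31, kal-1, wrt-5, C53A5.9, B0507.8 and cest-17 among the higher genes and capg-2, cdt-1, mcm-4, mcm-7, orc-1, rnr-2, zen-4, spd-5, gld-1 and pmt-2 among the lower ones. The others of the 66 kept their direction but lost the call at least once. Without null replicate 2 the call was lost by 31 genes, cnd-1, lsm-1, dph-3, hadb-1, pdi-2, enpl-1, cyb-3, cye-1, lin-41 and sel-8 among them, at adjusted p from 0.0514 to 0.276. Without null replicate 1 it was lost by 20, among them ddn-1, cyb-1, deps-1 and ins-34, at 0.0511 to 0.218. Without wild-type replicate 1 it was lost by 12, among them cpz-1, hadb-1, lsm-1 and cars-1, at 0.0509 to 0.429. Without wild-type replicate 2 it was lost by 17, among them Y57G11C.31, acl-4, lsm-1, dph-3, cnd-1, pdi-2 and mes-4, at 0.0616 to 0.46.

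nlp-31, wrt-5 and the collagens are epidermal products too, but belong to other lists than those of the tissues that carry out elongation. In 13 lists covering body wall muscle, pharynx, cilia, hemidesmosomes, basement membrane, apical junctions, actomyosin, epidermal fate and fusion, apical matrix, wound response, cadherins, axon guidance and ephrin or semaphorin signalling, 258 genes were tested and 0 were called by edgeR. At an unadjusted p under 0.05 there were 9 higher and 5 lower (5.43%, beside 10.7% of all genes), and DESeq2 called 2 higher and 2 lower. On molecule-scaled counts there were 2 higher and 1 lower call in the apical matrix list, 1 higher in epidermal fate and fusion and 1 lower in muscle. Fitted on the 2-fold libraries alone, muscle and apical matrix each had 1 higher and 1 lower call. Cadherins and epidermal fate and fusion each had 1 higher call there. The median difference was 0.09. Each of the 13 lists had 0 calls in the fit of all 12 libraries. Lists with a call, such as those of neurons, Wnt, Notch and heparan sulfate, were not pooled with them. The 0 of 258 therefore follows from the choice of lists, and the 5.43% and the median of 0.09 rest on the same choice. Some lists without a call were also left out. In that of the intestine, null libraries stood wholly below in 10 of 23 genes (43.5%, beside 25.9% of all genes) and above in 1. Within the pool, they stood wholly above in 11 of 24 apical matrix genes (45.8%, beside 16.1% of all genes) and below in 2. The summed level of 37 muscle genes was 19605 and 14901 CPM in wild-type and 18082 and 18219 CPM in null embryos, with overlapping groups. With 2 libraries of each genotype, changes near the spread between replicates were not detectable.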

How the data were processed

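Polyadenylated mRNA was measured in 12 libraries, 2 for each of 2 genotypes at 3 stages. Per the study's methods, the authors made QuantSeq 3′ libraries with molecular tags, processed the tags with UMI-tools, mapped reads with STAR and counted them with HTSeq. The genome build was WBcel235, which also served for positions and names here. Versions, the annotation release and the strand setting are not given in the sources used here. They deposited raw counts per gene, 1 file per library. The 5 summary lines were left out: 46.3% to 68.2% of the reads in the files were in them, mostly reads with several map positions.

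Symbols and positions were found for 20116 of 20362 genes. Counts were tested in edgeR 4.0.16 (R 4.3.3), with TMM scaling, a mean for each of the 6 groups, all 12 libraries and a robust two-sided quasi-likelihood F test, at a total count of 20 or more. The contrasts were null minus wild-type at the 2-fold stage, at the bean stage, and their difference (interaction). Standard errors were computed as the log2 difference over the root of F, with none for a group at 0 reads. Libraries were labelled as independent duplicates, and nothing else says how separate the cultures were. The p-values measure only the spread between these libraries, which may be technical.

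Deep libraries held well-expressed genes at 0 reads, so reads were taken to copy molecules several times. The study's methods describe discarding duplicate reads by their tags, and whether the deposited counts are so reduced was not established. The molecule estimates, floors and fold bounds rest on this reading of the counts. Reads per molecule (3.68 to 56.8 in the 2-fold libraries) were estimated, for each library, on genes whose mean over the remaining 11 was 1 to 3 CPM, from their mean reads and the share without a read. A group without reads was given a floor of 3 such molecules over its 2 libraries (12.41 CPM in null, 7.5 CPM in wild-type), which covers counting error only. Fitted changes of such genes are no bounds.

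The members and gene lists were chosen with earlier results of these data known. Named are the 15 higher and 15 lower called genes of smallest p whose genotypes do not overlap, the 14 discussed targets and hst-3.1, called predicted targets, up to 4 called genes a list, genes within 10 kb of a deleted microRNA gene, and tissue markers. Alternatives were other scalings (RLE, TMMwsp), no filter, filterByExpr, DESeq2 1.42.0, the 2-fold libraries alone, molecule-scaled counts, a replicate block and libraries left out, and, chosen after seeing the data, the log2 yolk level as a covariate. The fits were also run on counts simulated from the fitted spread. These held no copied molecules and no yolk difference set between libraries, and no result here rests on them.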

Additional observations from a re-analysis of the deposited data

Results flagged for a closer look

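The difference between the genotypes itself differed between the bean and the 2-fold stage in 17 of the named genes (edgeR interaction test, Benjamini-Hochberg adjusted over 12062 genes, n = 2 libraries a group). Most named genes were picked by their 2-fold calls, which rest on the same 2-fold libraries as this test. Their count is thus not independent of that choice. Across all genes the change from the bean to the 2-fold stage was upward in 2 differences and downward in 36 (0.0166% and 0.298%). The 2 were asns-2, whose difference grew, and F26F12.4, which went from -7.58 at the bean stage to -0.077 at the 2-fold stage. Of the 36, 35 were genes called lower at the 2-fold stage and 23 of those 35 had no read in either null 2-fold library. None of the 35 was called at the bean stage by edgeR. The yolk sum was 1079 and 3418 CPM in wild-type and 0 and 6.17 CPM in null libraries at the 2-fold stage, and with the yolk level in the fit 82 interactions were called.

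Among the replication genes, the adjusted p of the interaction was 0.000429 for cdt-1, 0.00186 for orc-1 and mcm-4, 0.0161 for mcm-7, 0.00633 for tyms-1, 0.000946 for pole-4 and 0.0391 for pola-1. mcm-7 differed by -0.92 at the bean stage and by -4.78 at the 2-fold stage on the log2 scale. Among the mitosis and cell cycle genes it was 0.000224 for capg-2, 0.000946 for zen-4, 0.00633 for spd-5, 0.0254 for ndc-80 and 0.0137 for cdk-4. It was 0.000224 for pmt-2, 0.00186 for sex-1, 0.0147 for fbxl-2, an F-box gene, and 0.0382 for EEED8.3. Among the higher genes it was 0.048 for asns-2, whose difference was 2.38 at the bean stage and 5.04 at the 2-fold stage, with null above wild-type in both libraries at each stage.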

How the results depend on the processing

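No gene called at the 2-fold stage was called in the opposite direction under any of the 14 alternatives. The 47 higher and 213 lower genes became 80 higher with RLE scaling, 104 and 385 without a filter, 92 and 429 with DESeq2, 94 and 428 with a replicate block, and 11 and 39 with the yolk covariate. The higher count was 152 on the 2-fold libraries alone and 131 on molecule-scaled counts. Leaving out 1 library, the higher count ranged from 20 to 75 and the lower count from 134 to 258. The 38 interaction calls became 173 without a filter, 24 with filterByExpr, 104 with DESeq2, 5 on molecule-scaled counts, 184 with the block and 82 with the yolk covariate, and 12 to 90 leaving out 1 library. The 6 higher predicted targets became 11 without a filter, 17 on the 2-fold libraries alone, 15 on molecule-scaled counts and 0 with the yolk covariate, where edgeR gave 6 higher at an unadjusted p under 0.05, and 1 to 8 leaving out 1 library. The median of the discussed targets, 1.35, was 0.77 with the yolk covariate and 0.99 to 1.62 leaving out 1 library. With the yolk covariate the sign turned for hst-3.2 (-7.51), mig-1 (-1.86), lin-17 (-2.05), efn-4 (-0.66), hst-3.1 (-0.039), mom-2 (0.13), pdi-2 (-0.042), ttr-34 (-3.87), mogs-1 (1.29) and fkb-1 (-0.96). Leaving out 1 library turned the sign for hst-2 (-7.96 to 0.11), hst-3.2 (-0.71 to 2.21), vab-2 (-1.07 to 0.057), lon-1 (-0.055 to 1.13), hrg-4 (-0.50 to 7.24), hrg-6 (-0.44 to 1.13) and fkb-1 (-0.14 to 0.56). The cause was not tested. TMMwsp scaling moved the median of all genes from -0.14 to 0 and RLE to -0.13.

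The 2-fold groups share replicate numbers, but deviations of same-numbered libraries correlated at 0.0296, and with 2 pairs the numbers are only labels. With the replicate block all 47 and 213 calls were kept. The planned results on seed-site classes were not run, since they need a genome. With 2 libraries a group and 134774 to 240856 estimated molecules a library, genes under the floors of 12.41 and 7.5 CPM cannot be told from 0 reads, and small changes were not detectable.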

Other observations

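6 of the 47 higher genes (12.77%, beside 18.3% of all genes tested) were under 1 CPM on average in both genotypes at the bean stage. The same 6 were also under 1 CPM at the 190-cell stage. Of all 12062 genes tested, 1474 were under 1 CPM at both stages, a similar share, so this trait does not set the higher genes apart. The 6 higher genes were ddn-1, C53A5.9, B0507.8, Y2H9A.4, W04G5.16 and F09C6.12, of which the last 3 were singled out after their values were seen. Y2H9A.4 was at 0 and 0 CPM in wild-type and at 141 and 78.3 CPM in null embryos of the 2-fold stage, at least 14.6-fold higher. W04G5.16 was at 0 and 0 CPM against 118.8 and 65.1 CPM, at least 12.25-fold higher, and F09C6.12 at 4.44 and 0 CPM against 189.8 and 120 CPM. In all 6, null replicate 1 was above null replicate 2. 5 of them lie on chromosome V and W04G5.16 on chromosome I. The shares of all genes with these traits were not computed, so neither count sets the 6 genes apart. ddn-1 (8758820 to 8760516) and B0507.8 (8760622 to 8762961) lie side by side on the minus strand of chromosome V. They may therefore not be separate observations, which was not tested.

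Some higher genes outside the lists were singled out after their values were seen, and no list of their pathways was tested. daf-22, the peroxisomal thiolase that shortens ascaroside side chains, was at 56.1 and 35.2 CPM in wild-type and 178 and 209 CPM in null embryos (edgeR, log2 difference 2.06 ± 0.54, adjusted p = 0.0383). maoc-1, a peroxisomal hydratase of the same pathway, was at 16.9 and 13.4 CPM against 86.6 and 56.6 CPM (2.21 ± 0.57, adjusted p = 0.0344). At the bean stage daf-22 also rose, by 2.81 (adjusted p = 0.0393), and the difference of maoc-1 was 2.04 (adjusted p = 0.2). icl-1, the glyoxylate cycle enzyme, was at 192 and 158 CPM against 879 and 613 CPM (2.09 ± 0.48, adjusted p = 0.0133). Null libraries were above wild-type libraries in all 3.

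A further 4 higher genes were singled out in the same way. eif-3.G, of a translation initiation factor, was at 118 and 92.2 CPM against 407 and 421 CPM (edgeR, 1.97 ± 0.43, adjusted p = 0.0109) and eif-2Bdelta at 33.7 and 77.7 CPM against 249.6 and 333 CPM (2.42 ± 0.55, adjusted p = 0.0129). fkb-5 and cyn-6, prolyl isomerase genes, rose by 1.51 ± 0.38 (adjusted p = 0.029) and 1.68 ± 0.43 (adjusted p = 0.0319).

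The 33 tested proteasome genes had a median of -0.93 on the log2 scale and 0 calls by edgeR or DESeq2, with 0 higher and 7 lower at an unadjusted p under 0.05. Null libraries lay wholly below wild-type libraries in 18 of them (54.5%, beside 25.9% of all genes) and above in 0 (beside 16.1%). Wild-type replicate 2 was above replicate 1 in 31 of the 33. The median was -0.54 without wild-type replicate 2 and 0.06 with the yolk level in the fit.

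Of the 213 lower genes 57 lie on chromosome I (26.8%, beside 16.9% of all genes tested) and 16 on the X chromosome (7.51%, beside 14.4%). Of the 47 higher genes 6 lie on chromosome I and 5 on the X chromosome. In wild-type embryos 140 of the 213 lower genes (65.7%) were at a lower mean level at the 2-fold than at the bean stage, beside 40.3% of all genes tested. The share was much the same among the higher genes, at 31 of 47 (65.96%), so it does not set the lower genes apart. This comparison shares the wild-type 2-fold libraries with the one that called them.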
